A study of Mus musculus with 4 samples.

Results

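The Sox transcription factors examined here are the 10 genes Sox1, Sox2, Sox3, Sox4, Sox8, Sox9, Sox10, Sox11, Sox12 and Sox21, taken by symbol from the 21830 genes analyzed. Each had 1 line in every gene table. Retinas of transgenic mice were sorted by FACS at postnatal day (P)1 and P4, and RNA of the EGFP-positive cells (pHes1_EPC) and of the EGFP-negative cells (pHes1_ENC) was sequenced. Each fraction gave 1 library per age, 4 in all. All 4 come from mice that carry destabilized EGFP behind the Hes1 promoter, and their labels give the strain as FVB/N. Which retinal cells fluoresce therefore depends on that promoter fragment. Citing earlier work on this line, the study describes EGFP as central and not peripheral in the retina. From the same work it states that nearly all Müller glia of the postnatal retina carried EGFP. How EGFP was spread over the retinas sorted here was not examined. How many animals were pooled for a library is not given in the sources used here.

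Sox proteins bind DNA through an HMG box, a domain that bends the double helix, and the family is divided into classes by the sequence of this box. SoxB1 proteins (Sox1, Sox2, Sox3) maintain neural progenitors, and Sox21, a SoxB2 protein, counteracts them. SoxC proteins (Sox4, Sox11, Sox12) act in cells that leave the cell cycle and become neurons. SoxE proteins (Sox8, Sox9, Sox10) act in glia and in the neural crest. In the retina, Sox2, Sox8 and Sox9 are known from progenitors and from Müller glia, the glial cells that derive from these progenitors.

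The HMG box is where the members resemble one another most, so that reads of 36 bases, as sequenced here, could in principle be shared between them. The 36 bases at the conserved start of the box are shown for all 10 members, on the coding strand with positions in NCBI37/mm9. Capitals mark bases that differ from Sox2 at the same place.
Sox2, chr3:34549470-34549505, plus strand: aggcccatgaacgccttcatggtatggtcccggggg
Sox1, chr8:12396517-12396552, plus strand: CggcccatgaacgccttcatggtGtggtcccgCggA
Sox3, chrX:58146135-58146170, minus strand: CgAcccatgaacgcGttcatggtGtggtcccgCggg
Sox21, chr14:118634795-118634830, minus strand: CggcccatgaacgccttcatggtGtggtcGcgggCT
Sox4, chr13:29044675-29044710, minus strand: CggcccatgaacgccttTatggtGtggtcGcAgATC
Sox11, chr12:28027088-28027123, minus strand: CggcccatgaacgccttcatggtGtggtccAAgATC
Sox12, chr2:152223276-152223311, minus strand: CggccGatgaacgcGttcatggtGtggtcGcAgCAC
Sox8, chr17:25707132-25707167, minus strand: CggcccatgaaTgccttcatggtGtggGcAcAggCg
Sox9, chr11:112644217-112644252, plus strand: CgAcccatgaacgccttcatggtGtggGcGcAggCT
Sox10, chr15:78993796-78993831, minus strand: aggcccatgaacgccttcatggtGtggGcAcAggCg
No 2 members had the same 36 bases at this place, and the number that differ from Sox2 ranged from 4 in Sox1 to 9 in Sox12. Over the 231 coding bases around this place, identity was 87.0 to 89.2% among the SoxB members, 84.8 to 90.5% among the SoxC members and 81.8 to 86.1% among the SoxE members. Between classes it was 65.4 to 74.5%. Runs of this length were nonetheless shared exactly at other places. Of all 36-base runs along a member, at most 0.56% (15 of 2678, in Sox10) also occurred in another Sox gene. Sox10 shared these 15 with Sox9, Sox4 shared 13 with Sox11, and Sox1 shared 10 with Sox3 and 3 with Sox2. The longest shared stretch was 48 bases, between Sox4 and Sox11, and Sox8 and Sox12 shared none. Counting every place in the genome, between 0 runs (Sox12) and 1.56% of the runs (Sox9) had a further exact position.

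FPKM values count mapped fragments relative to transcript length and library size, so levels may be compared between genes. Cufflinks gives a 95% interval with each FPKM, which covers counting error only. There is 1 library in each group, so how much animals or sorts vary is unknown and no test was possible. Ranges after a ratio were formed from the interval bounds of both libraries. For 10 of the 40 member values, those of Sox4 in all 4 libraries among them, the FPKM lies above the upper bound of its own interval, by at most 4.67%, and 9.26% of the values of all genes lie outside theirs. Each ratio of members with a complete range falls within it.

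**Figure D1:**
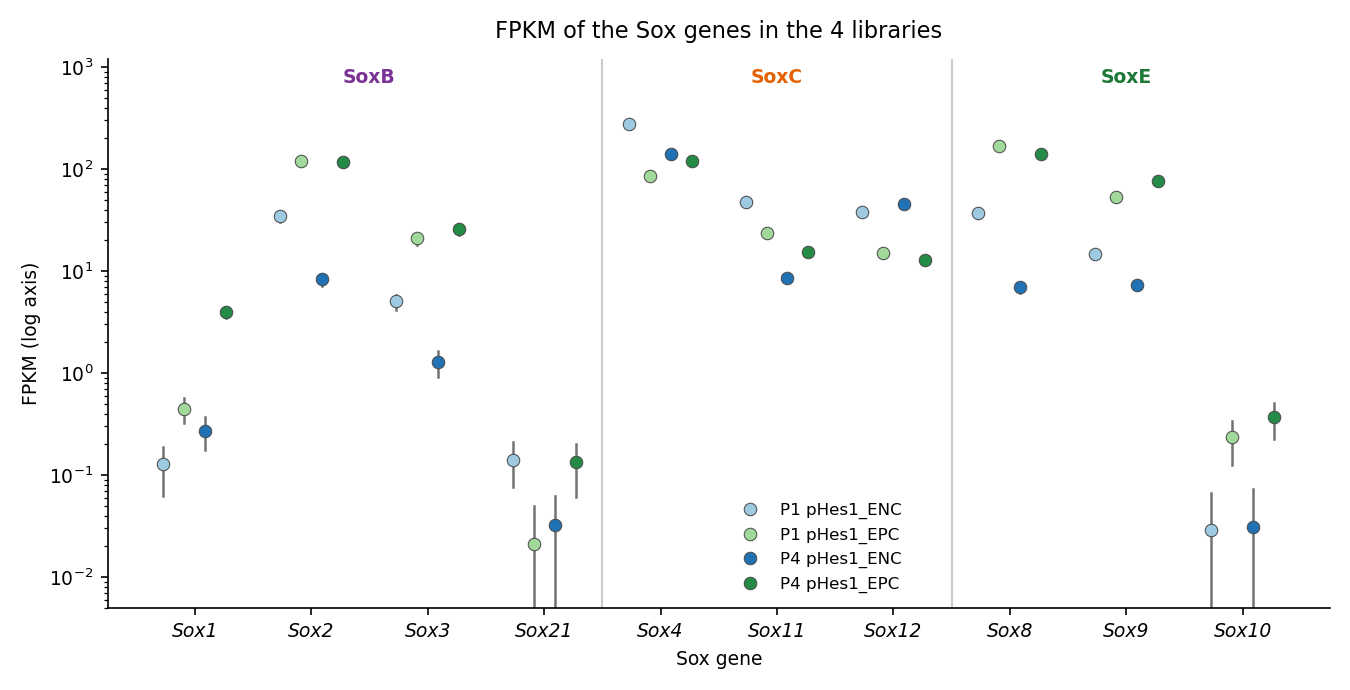
FPKM on a log axis of the 10 Sox genes, grouped by class, in each of the 4 libraries (points), with the Cufflinks 95% interval as a grey line that reaches the lower edge where its lower bound is 0. All SoxB1 and SoxE genes (Sox1, Sox2, Sox3, Sox8, Sox9, Sox10) have both pHes1_EPC points above both pHes1_ENC points. Sox4 and Sox12 have them the other way round, and Sox10 and Sox21 stay below an FPKM of 1 in all 4 libraries.

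The sort was first checked on Hes1, the Notch target whose promoter drives EGFP. The FPKM of Hes1 was 16.6 in pHes1_ENC and 105 in pHes1_EPC at P1, and 3.59 and 93.5 at P4. Of 8 genes that mark Müller glia, 7 were more than 2-fold higher in pHes1_EPC at both ages, and so were 5 of 8 progenitor genes at P1 and 7 at P4. All 5 proliferation genes (Mki67, Top2a, Ccnb1, Mcm2, Pcna) were higher as well, with a summed FPKM of 209 in pHes1_ENC and 906 in pHes1_EPC at P1, and of 60.7 and 370.0 in the P4 libraries. Of 7 photoreceptor genes, 5 were more than 2-fold lower in pHes1_EPC at P1 and 6 at P4, and of 8 amacrine and horizontal cell genes 7 and 6. Genes of progenitors and of glia were thus high in the same libraries, and those of photoreceptors, amacrine and horizontal cells in the others. Other neuronal lists did not follow this. Of 5 ganglion cell genes, 0 were past 2-fold in either direction at P1 or P4. Of 5 bipolar cell genes, 2 were lower in pHes1_EPC at P1, and 1 was lower and 1 higher at P4. In such bulk samples, fewer cells of a type and less RNA per cell cannot be told apart.

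In this setting, most SoxB1 and SoxE genes that were detected above an FPKM of 1 were higher in pHes1_EPC, and Sox4 and Sox12 of the SoxC genes were higher in pHes1_ENC at P1. Differences are those of log2(FPKM + 1), with the pHes1_ENC value subtracted from that of pHes1_EPC, and a gene is counted as higher or lower past 1, that is 2-fold on this scale. At P1, 4 of the 10 members were higher in pHes1_EPC (Sox2, Sox3, Sox8, Sox9), against 6.1% of all genes, and 2 were lower (Sox4, Sox12), against 6.79% of all genes. At P4, 5 were higher (the same 4 and Sox1), against 9.85% of all genes, and 1 was lower (Sox12), against 5.42% of all genes. The 4 SoxB members had a median difference of 1.06 at P1 and 2.77 at P4, the 3 SoxE members of 1.78 and 3.21, and the 3 SoxC members of -1.28 and -0.21. Over all genes it was 0.00 at both ages. The 10592 genes that reached an FPKM of 1 in every library had medians of 0.04 (P1) and 0.15 (P4), against which the P4 differences are to be read.

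**Figure D2:**
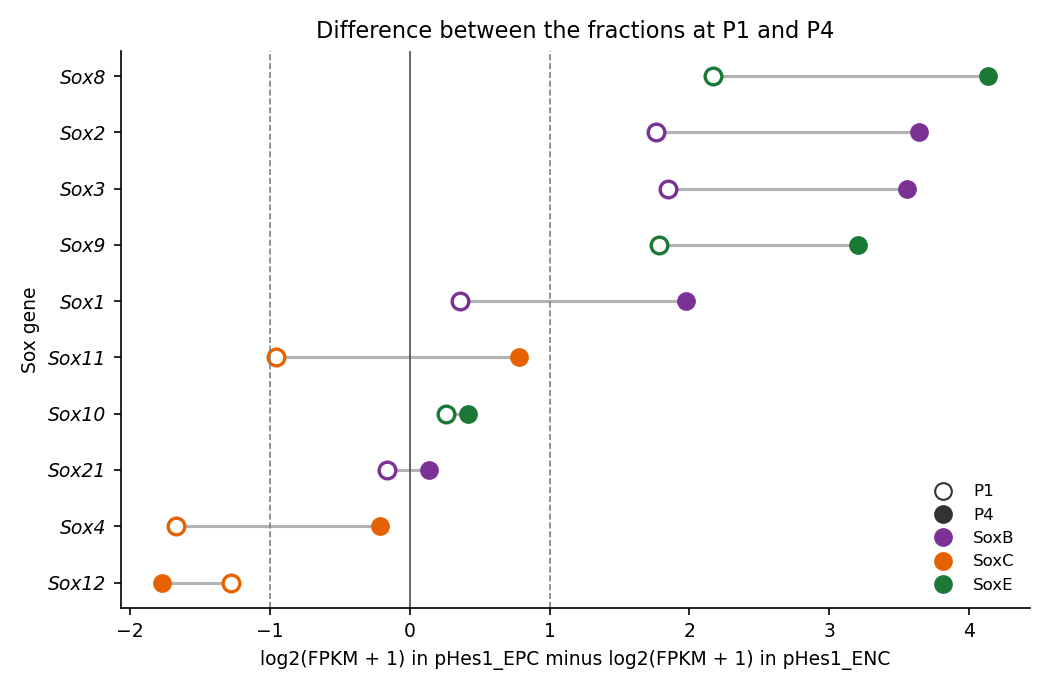
Difference in log2(FPKM + 1) between pHes1_EPC and pHes1_ENC (horizontal axis) for each Sox gene at P1 (open circles) and P4 (filled circles), coloured by class, with dashed lines at -1 and 1. The filled circle lies to the right of the open one for all genes but Sox12, and the line of Sox11 crosses 0, from -0.96 to 0.78.

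The sum over the members of a class gave a similar picture of levels. In pHes1_ENC the SoxC genes held 362 of a total FPKM of 454 over the 10 members at P1 (79.8%) and 194 of 218 at P4 (88.8%). In pHes1_EPC their sum was 125 of 489 at P1 (25.6%) and 149 of 512 at P4 (29.0%). Sox4 alone accounted for most of each SoxC sum. The SoxE sum, mainly that of Sox8 and Sox9, was 51.8 and 14.4 in pHes1_ENC and 223 and 217 in pHes1_EPC, at P1 and P4. The SoxB sum was 39.8 and 10.02 in pHes1_ENC and 141 and 147 in pHes1_EPC. Thus both pHes1_EPC libraries and the P1 pHes1_ENC library had similar totals with a different make-up, whereas the total in P4 pHes1_ENC was lower than in the other 3 libraries.

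**Figure D3:**
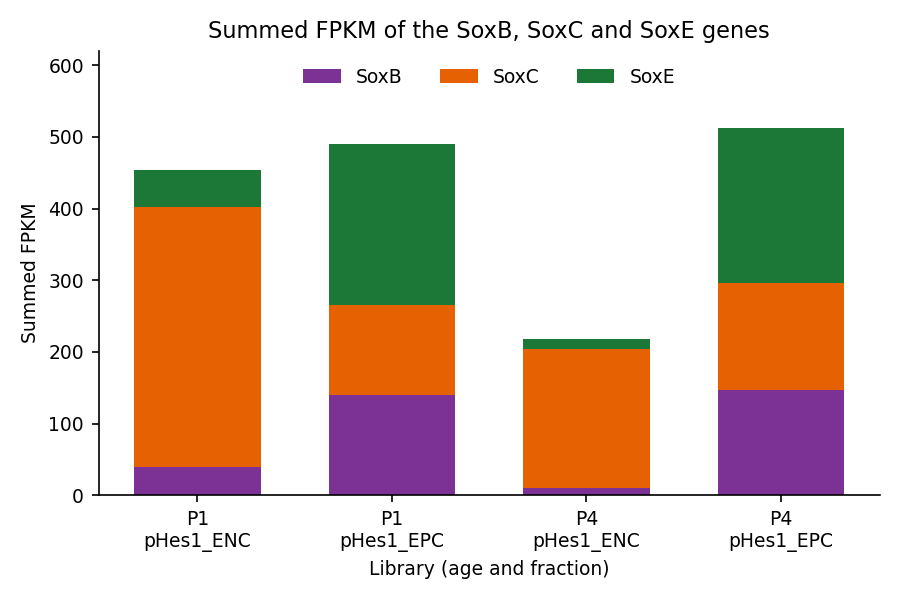
Summed FPKM (vertical axis, from 0) of the 4 SoxB, 3 SoxC and 3 SoxE genes, stacked for each of the 4 libraries, with no error bars because each bar is 1 library. SoxC genes make up most of both pHes1_ENC bars (79.8% and 88.8%), and SoxE genes are the largest part of both pHes1_EPC bars (45.6% and 42.3%).

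Sox2, the SoxB1 factor that retinal progenitors need to remain competent for neurogenesis, was the most abundant SoxB member in every library. Its gene line lies at chr3:34548927-34551382. At P1 its FPKM was 34.4 in pHes1_ENC and 119 in pHes1_EPC, a 3.46-fold difference (3.15 to 3.78). At P4 it was 8.44 and 117, a 13.9-fold difference (11.6 to 15.8). In pHes1_ENC it was 4.07-fold lower at P4 than at P1 (3.34 to 4.74). In pHes1_EPC the deposited values of both ages have overlapping intervals, with a change of -0.02 on the log2(FPKM + 1) scale. This value depends on the scaling, since the expressed genes as a whole changed by a median of 0.20 in this fraction, and it was -0.31 after rescaling to the mean FPKM sum, -0.22 with median-of-ratios factors and -0.42 after quantile normalization. In the adult retina Sox2 also marks cholinergic amacrine cells. Of the 4 genes for these cells, 1 was more than 2-fold lower in pHes1_EPC at P1 and 0 were past 2-fold at P4. Chat, Slc18a3 and Slc5a7 had an FPKM of 0 to 0.905 over the 4 libraries and Chat was listed at 0 in both P4 libraries, while Isl1, which bipolar and ganglion cells share, ranged from 1.77 to 5.25.

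The Sox2 gene lies inside Sox2ot, a long noncoding RNA transcribed from the same strand, whose line spans chr3:34459303-34576915. At P1 Sox2ot had an FPKM of 5.44 in pHes1_ENC and 18.2 in pHes1_EPC, and at P4 of 2.30 and 35.5. The difference was 1.58 at P1 and 3.47 at P4, close to the 1.76 and 3.64 of Sox2. Within pHes1_EPC, however, Sox2ot was 1.95-fold higher at P4 than at P1 (1.75 to 2.20), whereas the ratio of Sox2 was 0.983 (0.916 to 1.06). The share of reads that could belong to either gene was not tested.

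Sox3, the X-linked SoxB1 gene, was lower than Sox2 in each library. Its FPKM was 5.13 in pHes1_ENC and 21.1 in pHes1_EPC at P1, a 4.12-fold difference (3.13 to 5.15). At P4 the values were 1.29 and 26.0, a 20.2-fold difference (13.6 to 28.5). Like Sox2 it was lower in pHes1_ENC at P4 than at P1, by 3.99-fold (2.51 to 6.33). In pHes1_EPC the P4 level was 1.23 times that at P1 (1.05 to 1.44), a change of 0.29 that was 0.01 to 0.11 under the same scalings. Sox3 is one of the genes the study itself picked from these libraries for a higher level in pHes1_EPC, so its direction is not independent evidence. The same holds for Sox2, Sox8 and Sox9, whose ratios also pass the study's 2-fold rule at both ages in these libraries.

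Sox1, the remaining SoxB1 gene, differed from the other members in its change with age. Its FPKM was 0.129 in pHes1_ENC and 0.448 in pHes1_EPC at P1, and 0.268 and 4.01 at P4. The P4 pHes1_EPC value stands apart from the others, which are all below 1. On the log2(FPKM + 1) scale the difference was 0.36 at P1 and 1.98 at P4, and without the added 1 the ratios were 3.47 (1.70 to 8.98) and 15.0 (9.47 to 25.4). Sox1 was 8.94-fold higher in P4 than in P1 pHes1_EPC (6.18 to 13.8). On the log2(FPKM + 1) scale it was the only member past 2-fold between the ages in this fraction. By plain ratio Sox21, below an FPKM of 1 in every library, was past it as well (6.40). The line of Sox1 lies within that of Gm5607, at chr8:12385771-12436732. Gm5607 is outside the rule for naming genes and was looked up because of the overlap. The FPKM of Gm5607 in P1 pHes1_ENC, P1 pHes1_EPC, P4 pHes1_ENC and P4 pHes1_EPC was 0.204, 0.384, 0.0672 and 1.22, also highest in P4 pHes1_EPC, and the reads that both lines could take were not told apart here.

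Sox21, the SoxB2 member, was close to the detection limit. At P1 it was listed at 0.142 in pHes1_ENC and 0.0212 in pHes1_EPC, and at P4 at 0.0328 and 0.136. In the libraries with the lower value at each age the interval reaches 0. No direction can be read at this depth at P4, where the intervals overlap. At P1 they do not overlap, with pHes1_ENC the higher fraction, and the difference on the log2(FPKM + 1) scale was -0.16.

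Sox8, a SoxE gene known from Müller glia, was the most abundant member in both pHes1_EPC libraries. In P1 pHes1_EPC it ranked 209th and in P4 pHes1_EPC 418th among all genes by FPKM. At P1 its FPKM was 36.9 in pHes1_ENC and 169 in pHes1_EPC, a 4.59-fold difference (4.20 to 4.89). At P4 it was 7.02 and 140.1, a 19.9-fold difference (16.6 to 22.3). The pHes1_ENC level was 5.26-fold lower at P4 than at P1 (4.32 to 6.11), and the pHes1_EPC level 1.21-fold lower (1.15 to 1.27), a change of -0.27 that was -0.56, -0.47 and -0.68 under the scalings listed for Sox2.

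Sox9, which marks Müller glia in the mature retina and progenitors before, was lower than Sox8 in each pHes1_EPC library. Its FPKM at P1 was 14.9 in pHes1_ENC and 53.6 in pHes1_EPC, a 3.61-fold difference (3.25 to 3.96). At P4 it was 7.33 and 76.3, a 10.4-fold difference (8.94 to 11.5). Unlike Sox8, Sox9 was higher in P4 than in P1 pHes1_EPC, by 1.42-fold (1.32 to 1.51). On the log2(FPKM + 1) scale this was 0.50, and 0.22, 0.31 and 0.18 under the scalings listed for Sox2. As a result the ratio of Sox8 to Sox9 in pHes1_EPC was lower at P4 than at P1. In pHes1_ENC Sox9 was 2.03-fold lower at P4 (1.70 to 2.34), a difference of -0.93 on the log2(FPKM + 1) scale.

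Sox10, the SoxE gene of neural crest, melanocytes and oligodendrocytes, stayed below an FPKM of 1. It was listed at 0.0290 and 0.235 at P1, and at 0.0313 and 0.376 at P4, in pHes1_ENC and pHes1_EPC. The pHes1_EPC values were the higher ones at both ages and their intervals do not overlap those of pHes1_ENC, which reach 0. The differences on the log2(FPKM + 1) scale were 0.26 and 0.42. Of 6 melanocyte and pigment epithelium genes, 1 was more than 2-fold higher in pHes1_EPC at P1 and 4 at P4. Their summed FPKM was 3.40 to 7.16 in the other 3 libraries and 61.0 in P4 pHes1_EPC, where Pmel reached 36.5 and Dct 15.0, while Mlana was listed at 0 in both pHes1_ENC libraries. The interval widths of Sox10 in pHes1_EPC correspond to 19 reads at P1 and 27 at P4. Those of Sox9, also higher in pHes1_EPC, correspond to 2880 and 4940 reads there, and Sox10 shares 15 exact 36-base runs with Sox9. The parts of pigment cells and of such shared reads in the Sox10 values were not tested.

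Sox4, a SoxC gene of newborn neurons, had the largest FPKM of all members in the pHes1_ENC libraries. At P1 it was 277 in pHes1_ENC, rank 74 among all genes, and 86.6 in pHes1_EPC, so that pHes1_ENC was 3.20-fold higher (3.0 to 3.35). At P4 the values were 139 and 120.4, with pHes1_ENC 1.16-fold higher as deposited (1.10 to 1.22). On the log2(FPKM + 1) scale this P4 difference was -0.21, and -0.53, -0.39 and -0.58 under the scalings listed for Sox2. The pHes1_ENC level was 1.98-fold lower at P4 than at P1 (1.89 to 2.07) and the pHes1_EPC level 1.39-fold higher (1.30 to 1.47). The latter, a log2(FPKM + 1) change of 0.47, was 0.19, 0.27 and 0.09 under the scalings listed for Sox2. In P4 pHes1_EPC, Sox4 stood between Sox8 and Sox2, and its interval overlaps that of Sox2.

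Sox11, which acts together with Sox4 in young neurons, was at 47.3 in pHes1_ENC and 23.8 in pHes1_EPC at P1, a 1.99-fold higher level in pHes1_ENC (1.86 to 2.11). At P4 it was 8.55 and 15.4, so that pHes1_EPC was now the higher fraction, by 1.80-fold as deposited (1.61 to 2.01). On the log2(FPKM + 1) scale this P4 difference was 0.78, and 0.48, 0.61 and 0.62 under the scalings listed for Sox2. Sox11 was 5.53-fold lower in P4 than in P1 pHes1_ENC (5.01 to 5.96). This was the largest ratio of any member in this fraction, but its range overlaps that of Sox8 (4.32 to 6.11). In pHes1_EPC Sox11 was 1.55-fold lower at P4 (1.40 to 1.68), a change of -0.60 that was -0.87 to -0.74 under those scalings. Sox11 was therefore higher in the fraction of the photoreceptor, amacrine and horizontal cell genes at P1, and lower in it at P4.

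Sox12, the least studied SoxC gene, went with pHes1_ENC at both ages. It had an FPKM of 37.9 in pHes1_ENC and 15.0 in pHes1_EPC at P1, and 46.0 and 12.8 at P4. The pHes1_ENC level was 2.52-fold higher at P1 (2.26 to 2.77) and 3.60-fold higher at P4 (3.17 to 3.98). Among the members above an FPKM of 1 in both pHes1_ENC libraries, it was the only one with a higher level there at P4 than at P1, by 1.21-fold (1.12 to 1.31).

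Beside the SoxC values, the neuronal genes of the pHes1_ENC libraries changed with age as well. The summed FPKM of 8 amacrine and horizontal cell genes in pHes1_ENC was 253 at P1 and 82.8 at P4, and that of 7 photoreceptor genes 608 and 2899. In pHes1_EPC the amacrine and horizontal sum was 7.16 and 13.9, and the photoreceptor sum 35.1 and 548. Hemoglobin RNA of red cells (Hba-a1 and Hbb-b1) was also concentrated in pHes1_ENC, with a summed FPKM of 107 and 320 against 0.152 and 3.61. The part of these changes of composition in the Sox values was not tested.

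Comparing the ages directly, 4 members were more than 2-fold lower in P4 than in P1 pHes1_ENC (Sox2, Sox3, Sox8, Sox11), against 5.94% of all genes, and 0 were higher, against 2.77%. In pHes1_EPC, 1 member was higher at P4 (Sox1), against 4.17% of all genes, and 0 were lower, against 2.57%. The larger differences of Sox2, Sox3 and Sox8 between the fractions at P4 thus went with lower pHes1_ENC levels, and their pHes1_EPC ratios between the ages were 0.827 to 1.23 as deposited. Both comparisons use the same 4 libraries as those between the fractions, and age and library cannot be told apart.

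The order of the members changed between the libraries. In P1 pHes1_ENC it was Sox4, Sox11, Sox12, Sox8, Sox2, Sox9, Sox3, Sox21, Sox1 and Sox10, and the neighbours Sox12 and Sox8, Sox8 and Sox2, Sox21 and Sox1, and Sox1 and Sox10 have overlapping intervals. In P1 pHes1_EPC it was Sox8, Sox2, Sox4, Sox9, Sox11, Sox3, Sox12, Sox1, Sox10 and Sox21, with only Sox1 and Sox10 overlapping. In P4 pHes1_ENC, Sox4 and Sox12 led, and Sox11, Sox2, Sox9 and Sox8 followed at 8.55 to 7.02 with overlapping intervals from each to the next, as for Sox21 and Sox10 at the end. In P4 pHes1_EPC the order was Sox8, Sox4, Sox2, Sox9, Sox3, Sox11, Sox12, Sox1, Sox10 and Sox21, with an overlap only of Sox4 and Sox2.

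Among the rest of the family, Sox13 was the most abundant gene. Of 10 other Sox genes (Sox5, Sox6, Sox13, Sox7, Sox17, Sox18, Sox14, Sox15, Sox30 and Sry), 1 was more than 2-fold higher in pHes1_EPC at P1 and 2 at P4, and 0 were lower. Sox13, a SoxD gene, had an FPKM of 6.25 in pHes1_ENC and 28.0 in pHes1_EPC at P1 and of 1.89 and 15.5 in the P4 libraries, with differences of 2.00 and 2.52. Sox6, also SoxD, had an FPKM of 3.12 in P4 pHes1_EPC and of 0.531 to 0.972 in the other 3 libraries, a difference of 1.06 at P4. Sox5, the remaining SoxD gene, was at 1.90 and 1.06 at P1 and at 1.14 and 2.99 at P4. The SoxF genes Sox7, Sox17 and Sox18, which act in endothelium, were at 0 to 0.0555. Of 5 endothelial genes, 1 (Kdr) was more than 2-fold higher in pHes1_EPC at both ages and 1 (Cldn5) lower at P1. Pecam1, Cdh5 and Tek stayed at 0 to 0.142 and Cdh5 was listed at 0 in both P4 libraries, although Kdr had an FPKM of 209 and 189 in the pHes1_EPC libraries.

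The pattern of a gene over the 4 libraries was taken as log2(FPKM + 1) centred on its own mean, and the distance between 2 patterns as the Euclidean distance, among 8394 other genes that reached an FPKM of 10 in any library. The nearest to Sox2 were Dkk3 (distance 0.13), a secreted protein of Müller glia, Id1 (0.26), an inhibitor of bHLH factors, and Gas1 (0.28), a co-receptor for hedgehog proteins. For Sox8 they were the chemokine receptor Cxcr4 (0.18), the RNA-binding protein Zfp36l1 (0.18) and the collagen Col23a1 (0.19). For Sox9 they were Cnp (0.07), a gene best known from myelin, Fam184b (0.09) and Pbxip1 (0.12). Those of Sox4 were Tmeff1 (0.17), Clip2 (0.18) and Trp53i11 (0.21), and those of Sox11 Fam65b (0.15), the kinase gene Hunk (0.22) and Rassf4 (0.31). Dkk3 was at 153 and 477 at P1 and at 36.2 and 509 at P4, so that its level was several times that of Sox2 at each point while the proportions were alike.

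By pattern, the SoxC genes stood apart from the other members, while SoxB and SoxE genes were not separated from each other. Among the 7 members that reached an FPKM of 10 in any library, the 4 pairs of a SoxB and a SoxE gene had distances of 0.43 to 0.83, less than the 1.26 between Sox8 and Sox9 and the 1.17 to 2.35 within SoxC, and the smallest distance of all, 0.41, was that of Sox2 and Sox3 within SoxB. Pairs of a SoxC gene with a SoxB or SoxE gene were 2.84 to 5.0 apart. Sox3 and Sox9, with 70.1% identical bases in the stretch around the HMG box, were 0.43 apart, close to the distance of Sox2 and Sox3, which have 87.4% identical bases. Sox4 and Sox11, the most alike in sequence at 90.5%, were 1.49 apart. These are 21 pairs from only 7 genes and 4 libraries, and they are not independent.

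**Figure D4:**
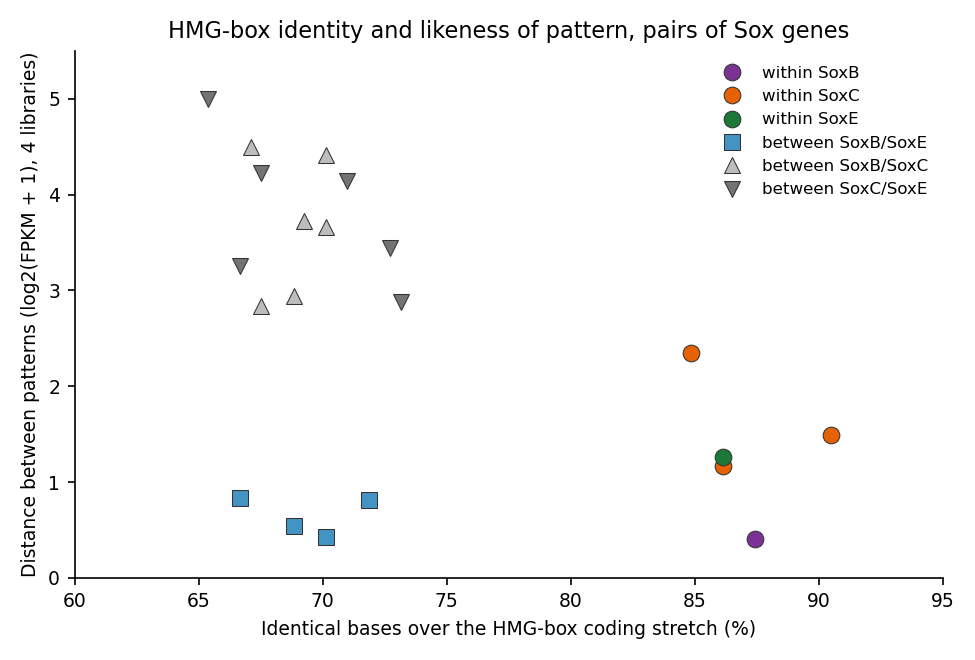
Each point is 1 of 21 pairs of 7 Sox genes, with the percentage of identical bases over the HMG-box coding stretch on the horizontal axis and the distance between their patterns over the 4 libraries on the vertical axis. The 4 pairs of a SoxB and a SoxE gene (squares) lie at the bottom left, with low identity and distances of 0.43 to 0.83, and the 12 pairs that set a SoxC gene against another class (triangles) lie at 2.84 or above.

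Genes listed as partners or targets of the 3 classes were read in the same way. Of 9 partners and targets of SoxB1 proteins, 2 were more than 2-fold higher in pHes1_EPC and 2 lower at P1, and 5 higher and 2 lower at P4. Pax6, the eye field homeobox gene whose protein pairs with Sox2, was at 246 in pHes1_ENC and 127 in pHes1_EPC at P1 and at 28.3 and 126 at P4. Its difference was -0.95 at P1 and 2.12 at P4, while the pHes1_EPC levels of both ages lay side by side. Six3, another eye field gene, was at 71.2 and 101 and then at 29.3 and 97.1. Notch1, the receptor upstream of Hes1, was at 60.5 and 108, and then at 31.4 and 87.6, with differences of 0.83 and 1.45.

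Of 11 SoxE targets, 3 were higher and 1 lower in pHes1_EPC at P1, and 5 higher and 0 lower at P4, and 4 of the 11 stayed below an FPKM of 1 in every library. The cartilage collagen Col2a1, a direct target of Sox9 in cartilage, was at 38.4 and 142 at P1 and at 17.5 and 230 at P4, with differences of 1.86 and 3.64. Col9a1 was at 9.53 and 63.0 and then at 1.78 and 36.4, with differences of 2.60 and 3.75. Other cartilage targets were absent or nearly so: Acan, Hapln1 and Matn1 were at 0 to 0.0215, and Matn1 was listed at 0 in all 4 libraries. Dct, a pigment cell gene, was at 2.47 and 0.888 at P1 and at 2.84 and 15.0 at P4.

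Of 7 SoxC targets, 0 were higher and 4 lower in pHes1_EPC at P1, and at P4 1 was higher and 1 lower. Tubb3, the neuronal tubulin, was at 308 and 20.5 at P1 and at 94.9 and 55.4 at P4, and its difference went from -3.85 to -0.77, narrowing with age as that of Sox4 did. Atoh7, the bHLH gene of ganglion cell precursors, was at 77.3 and 3.54 and then at 6.82 and 1.71. Tead2, the nuclear partner of Yap proteins, went the other way, at 48.9 and 86.1 and then at 21.0 and 95.6.

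**Figure D5:**
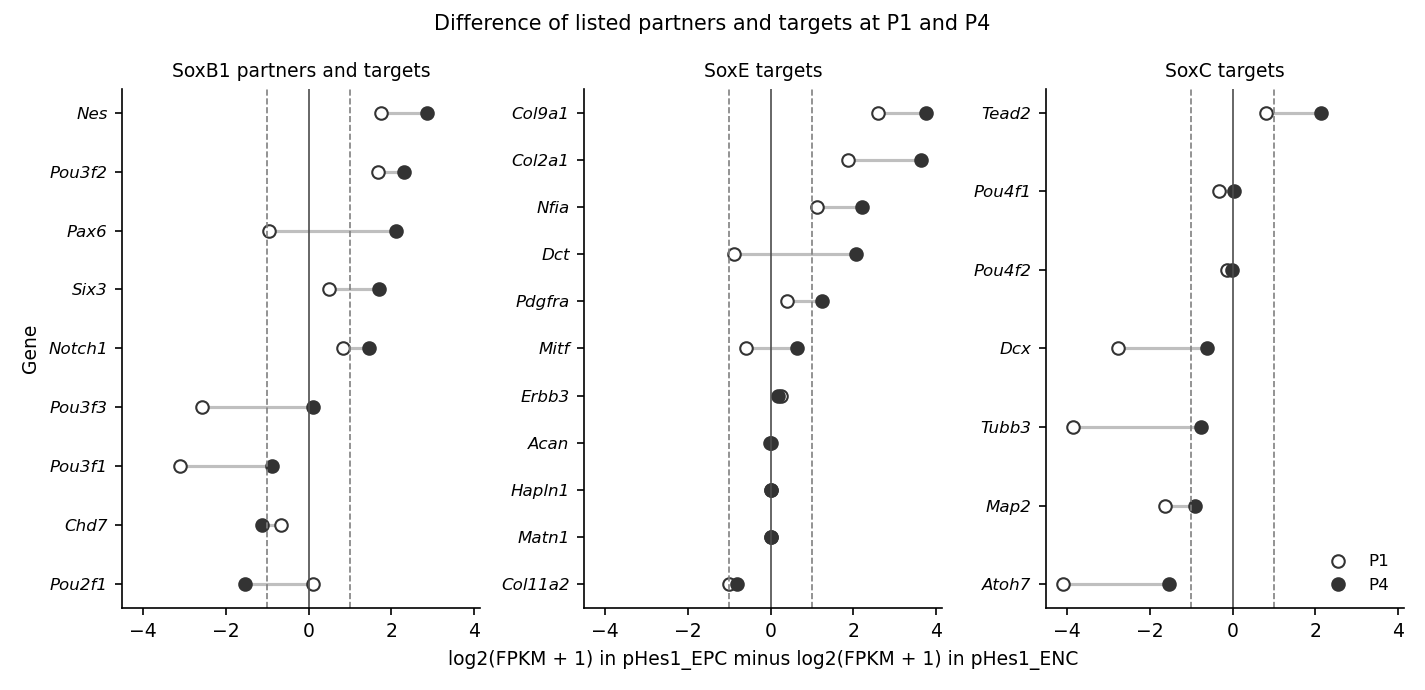
Difference in log2(FPKM + 1) between pHes1_EPC and pHes1_ENC (horizontal axis) for each listed gene at P1 (open circles) and P4 (filled circles), in one panel for each list, with dashed lines at -1 and 1. Col9a1, Col2a1, Nfia, Nes and Pou3f2 lie right of 1 at both ages, Tubb3, Dcx, Map2, Pou3f1, Pou3f3 and Col11a2 lie left of -1 at P1 alone, and the lines of Pax6 (-0.95 and 2.12) and Dct (-0.88 and 2.06) are the longest of those that cross 0 and end past 1.

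The 250 bases upstream of the start were read for the 7 members found in the RefSeq promoter table (GRCm38.p6), while Sox3, Sox9 and Sox10 were not analyzed there. Sox2 and Sox8, which had alike patterns, and Sox4, which had the opposite one at P1, are shown on the strand of the gene. Capitals mark matches on either strand to TGGGAA (the RBPJ motif), CACNAG (N box), CANNTG (E box) or ACAANG (Sox motif).
Sox2, chr3:34649745-34649994, plus strand: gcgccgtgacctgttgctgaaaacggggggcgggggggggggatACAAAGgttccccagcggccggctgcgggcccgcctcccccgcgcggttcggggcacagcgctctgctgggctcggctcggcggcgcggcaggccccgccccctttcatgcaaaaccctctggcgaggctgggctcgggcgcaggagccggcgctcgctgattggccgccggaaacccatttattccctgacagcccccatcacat
Sox8, chr17:25570687-25570936, minus strand: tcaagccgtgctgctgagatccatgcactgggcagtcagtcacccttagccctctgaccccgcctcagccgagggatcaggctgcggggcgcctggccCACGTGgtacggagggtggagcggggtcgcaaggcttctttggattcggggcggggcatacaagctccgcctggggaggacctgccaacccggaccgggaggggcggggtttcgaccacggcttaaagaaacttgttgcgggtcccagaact
Sox4, chr13:28953700-28953949, minus strand: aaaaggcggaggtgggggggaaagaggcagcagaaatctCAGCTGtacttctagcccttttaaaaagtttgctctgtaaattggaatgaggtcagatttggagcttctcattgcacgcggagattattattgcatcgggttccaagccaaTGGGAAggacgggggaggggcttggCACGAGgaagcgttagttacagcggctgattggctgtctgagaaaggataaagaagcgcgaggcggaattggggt
The only match in Sox2 was a Sox motif and the only one in Sox8 an E box, so that no motif was common to both. Sox4 held an E box, an RBPJ motif and an N box, in that order from the 5′ end, without overlap. Over the 7 members, the RBPJ motif was found in 1 (Sox4), against 21.6% of 32851 promoters, and the N box, through which Hes1 proteins can bind, in 3 (Sox4, Sox11, Sox21), against 36.7%. The E box was found in 4 (Sox4, Sox8, Sox11, Sox12), against 66.2%, and the Sox motif in 2 (Sox1, Sox2), against 36.3%. The GC content of these 250 bases was 72.0% in Sox2, 65.6% in Sox8 and 50.8% in Sox4, with a median of 52.4% over all promoters. A match is a run of letters, not a site that is known to be bound.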

How the data were processed

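RNA of sorted retinal cells was measured in 4 libraries, pHes1_ENC and pHes1_EPC at P1 and P4. The authors used TopHat 2.0.8b to place the 36-base single-end reads on NCBI37/mm9, with at most 50 positions kept per read, and deposited FPKM from Cufflinks 2.1.1 for 23021 gene lines, with a 95% interval and a status. The protocol does not mark strand. All 10 members have the status OK in the 4 libraries. The deposited FPKM were used without further scaling. They sum to 342618 to 450080 per library. Read counts were not used here. The interval widths correspond to 13 to 11830 reads for 36 of the 40 member values, which limits precision for Sox1, Sox10 and Sox21, and they cover counting error only.

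Small RNAs (794 lines) were left out, and 234 symbols with more than 1 line were each represented by their most highly expressed line, for a total of 21830 genes. Differences used log2(FPKM + 1), and more than 2-fold means past 1 on that scale. With 1 library per group no test was made. Some listed genes are not reported here. List symbols were matched for 92 of 92, 3 of them under an older symbol (Map2, Tfap2a, Tfap2b). File positions count from 0 and are given from 1. The members, the lists and the alternatives were chosen with earlier results of these data known. Named genes are the members, the other Sox genes, Sox2ot, Hes1, the 3 nearest patterns of Sox2, Sox4, Sox8, Sox9 and Sox11, the 3 highest genes of each target list with others of these lists as examples, and the markers of a described cell type. Alternatives were another pseudocount, a filter on low values, 3 scalings, summed lines, small RNAs kept, status OK and intervals that do not overlap. The code behind the calls was tested on simulated data that held counting error only. Sequences come from the NCBI37/mm9 genome and from RefSeq promoters (GRCm38.p6). Protein sequences were not used here. Python 3.11.15 with numpy 2.4.6, pandas 2.3.3 and matplotlib 3.10.9 was used.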

Additional observations from a re-analysis of the deposited data

Results flagged for a closer look

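Of 114 genes (the members, the other Sox genes, the nearest patterns, the listed partners and targets, the markers of the cell types described except ganglion and bipolar cells, Sox2ot, Gm5607 and Hes1), 17 differed between the fractions in opposite directions at P1 and P4, and for 10 of them the Cufflinks intervals of the fractions do not overlap at either age. With 1 library in each group, the difference between the ages was not tested for any of them. The same counts were not made over all genes, so whether they are unusual is unknown. Over all genes, intervals apart at a single age were common. At P1, 22.1% were higher and 21.8% lower in pHes1_EPC by this rule, and at P4 28.3% and 18.6%. Sox11 was lower in pHes1_EPC at P1 (-0.96) and higher at P4 (0.78), and its 3 nearest patterns by the distance used here did the same: Fam65b (-0.86 and 0.95), Hunk (-1.03 and 1.04) and Rassf4 (-0.78 and 1.16). That these 3 share the reversal follows from how they were chosen. Pax6 went from -0.95 to 2.12, with an FPKM of 127 and 126 in the pHes1_EPC libraries and of 246 and 28.3 in the pHes1_ENC libraries. Among pigment cell genes, Dct went from -0.88 to 2.06, Tyrp1 from -0.94 to 0.56 and Mitf from -0.60 to 0.64. Sox5 went from -0.50 to 0.90. Pou2f1 was the only one of the 17 that was higher at P1 (0.11) and lower at P4 (-1.54). Its intervals overlap at P1. Rax went from -0.10 to 0.15, no more than the median of expressed genes at P4. For Pou3f3 (-2.57 and 0.11), Cldn5 (-1.95 and 0.50) and Pou4f1 (-0.33 and 0.04) the intervals overlap at P4. Sox21 (-0.16 and 0.14), Acan (-0.01 and 0.02) and Sry (-0.01 and 0.03) had an FPKM of at most 0.142 in every library, and their intervals overlap at P4.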

How the results depend on the processing

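Under the alternatives tried, 0 of 72 values of members past 2-fold between the fractions and 0 of 30 past 2-fold between the ages changed sign or fell within 2-fold, and 0 of all 240 member values changed sign. A lower or absent pseudocount cannot change a sign or bring a value within 2-fold. Summing lines leaves members with 1 line as they are. Only the 3 scalings could thus have done so, and the outcome of the other settings was fixed in advance. The count of members higher in pHes1_EPC at P1 was 4, and 6 with a pseudocount of 0.1 or none. At P4 it was 5, and 6 with a pseudocount of 0.1 and 7 with none. The shares over all genes under these pseudocounts were not computed. With intervals that do not overlap, the counts were 6 at P1 and 7 at P4, beside 22.1% and 28.3% of all genes. Counting intervals that do not overlap in place of 2-fold, 4 members instead of 2 were lower in pHes1_EPC at P1 and 2 instead of 1 at P4, beside 21.8% and 18.6% of all genes. The median difference of SoxB members was 1.52 at P1 and 3.63 at P4 with a pseudocount of 0.1, 1.79 and 3.85 with no pseudocount, and 1.81 and 3.56 when members under an FPKM of 1 in both libraries were dropped, against 1.06 and 2.77. For SoxE members it was 2.20 and 3.59 with no pseudocount, and 1.98 and 3.68 with that filter, against 1.78 and 3.21. Scaling moved the P4 medians: with libraries rescaled to the mean FPKM sum, median-of-ratios factors and quantile normalization, in this order, SoxE members were at 2.90, 3.04 and 2.87, and SoxC members at -0.53, -0.39 and -0.58, against -0.21. The expressed genes as a whole moved as well, from a median of 0.15 at P4 to -0.13, -0.01 and -0.03. Values near the threshold crossed it: Sox11 at P1 was -1.07 after rescaling and -1.08 after quantile normalization, against -0.96, and Sox4 between the ages in pHes1_ENC was -1.05, -1.03 and -1.25 under the 3 scalings, against -0.98. Sox9 between the ages in pHes1_ENC was -1.01 with a pseudocount of 0.1 and -1.02 with none, against -0.93. Members under an FPKM of 1 also passed it with a lower pseudocount. With 0.1, Sox1 at P1 was 1.26, and Sox10 was 1.38 at P1 and 1.86 at P4. With none, these were 1.80, 3.02 and 3.59, against 0.36, 0.26 and 0.42, Sox1 between the ages in pHes1_ENC was 1.05, and Sox21 was -2.74 at P1, 2.05 at P4, and -2.11 and 2.68 between the ages in pHes1_ENC and pHes1_EPC. Between the ages in pHes1_EPC, the changes of Sox2, Sox4, Sox8, Sox9 and Sox11 moved under each of the 3 scalings by more than 0.5 of the width of the range that their intervals give. No paired analysis was possible because each group has 1 library and the labels carry no replicate numbers, and no replicate could be left out.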
